A study of Mus musculus with 12 samples.

Results

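The genes of MHC class I antigen presentation were followed in sorted peritoneal macrophages (Mϕ). The set was chosen by symbol and has 10 members (H2-K1, H2-D1, B2m, Tap1, Tap2, Tapbp, H2-T23, H2-M3, Nlrc5 and Erap1), and all 10 were found among the 47643 genes listed for each of the 2 subpopulations. Female C57BL/6 mice, aged 8 to 12 weeks, were injected with zymosan (5 mg/kg), a yeast cell wall preparation that causes a self-limiting peritonitis. From day 1 they received either compound III (CIII, 25 mg/kg daily), which inhibits mPGES-1, the enzyme that makes prostaglandin E2 in inflammation, or its vehicle (VEH). F4/80lo Mϕ (CD45+, CD11b+, low for F4/80 and MerTK, high for MHC class II) and F4/80hi Mϕ (CD45+, CD11b+, high for F4/80 and MerTK) were sorted from the lavage at day 6. The 4 groups (F4/80lo VEH, F4/80lo CIII, F4/80hi VEH, F4/80hi CIII) had 3 libraries each, 12 in all, and every group had received zymosan, so that uninflamed Mϕ were not compared here. No class I gene was used in the sort. The sources do not say whether the libraries came from separate mice or whether the F4/80lo and F4/80hi libraries of a number share mice, so that p-values measure the spread between these libraries.

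MHC class I molecules display peptides from inside the cell to CD8 T cells. A polymorphic heavy chain (H2-K1 or H2-D1 in this strain) pairs with the invariant light chain B2m, and the peptides, cut by the proteasome, are pumped into the endoplasmic reticulum by the Tap1-Tap2 transporter, loaded with the help of tapasin (Tapbp) and trimmed by the aminopeptidase Erap1. H2-T23 and H2-M3 are nonclassical heavy chains with restricted peptide repertoires, and Nlrc5 is the transactivator of class I genes, which interferon gamma induces. Macrophages carry class I at all times and increase it under interferon.

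Of the 10 genes, 7 (H2-K1, H2-D1, H2-T23, H2-M3, Tap1, Tap2 and Tapbp) lie in the MHC on chromosome 17. H2-K1 spans 33996017 to 34000347 on the minus strand and Tap1 34187553 to 34197225 on the plus strand (GRCm38, GENCODE). B2m lies on chromosome 2 from 122147686 to 122153083, Erap1 on chromosome 13 from 74639568 to 74693201 and Nlrc5 on chromosome 8 from 94434356 to 94527272. The regulatory sequence through which Nlrc5 acts lies just before the start of class I genes, in a module of conserved boxes that binds RFX, CREB and NF-Y factors. RefSeq promoters (GRCm38.p6) were found for 8 of the 10 members, and the 250 bases before each start were searched on both strands for TGACG, the core of the box for CREB-like factors, and for CCAAT, the core of the NF-Y box. TGACG occurred in 17.8% of all 32851 promoters and CCAAT in 33.8%. Read on the other strand CCAAT is ATTGG. The pair TGACG and ATTGG in this order with exactly 20 bases between them occurred in 30 promoters (0.0913%), and 4 members had it: H2-K1, H2-D1, B2m and H2-M3. No other gap was searched, and how this gap was chosen is not recorded. As these members have it themselves, their count beside the share of all promoters is a description and not a test. Tap1, Tapbp, H2-T23 and Erap1 did not have it in this window. Those 4 promoters are shown because they share this spacing, with matches to TGACG, to CCAAT, to the STAT motif TTCNNNGAA and to the interferon-stimulated response element (GAAA, any 2 bases, GAAA) in capitals, on either strand. The motifs do not overlap in these 4 windows. The windows are chr17:34000348-34000597 on the minus strand, chr17:35262844-35263093, chr2:122147437-122147686 and chr17:37269984-37270233 on the plus strand.
H2-K1: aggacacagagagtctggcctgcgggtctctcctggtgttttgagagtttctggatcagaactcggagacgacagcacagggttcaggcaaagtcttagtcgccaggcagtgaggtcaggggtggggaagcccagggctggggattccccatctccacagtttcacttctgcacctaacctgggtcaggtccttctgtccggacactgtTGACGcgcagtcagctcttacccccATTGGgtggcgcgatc
H2-D1: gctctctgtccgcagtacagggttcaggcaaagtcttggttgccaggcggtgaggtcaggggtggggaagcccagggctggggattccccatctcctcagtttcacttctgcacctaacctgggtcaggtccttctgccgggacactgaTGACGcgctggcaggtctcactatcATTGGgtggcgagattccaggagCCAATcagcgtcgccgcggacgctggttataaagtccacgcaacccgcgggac
B2m: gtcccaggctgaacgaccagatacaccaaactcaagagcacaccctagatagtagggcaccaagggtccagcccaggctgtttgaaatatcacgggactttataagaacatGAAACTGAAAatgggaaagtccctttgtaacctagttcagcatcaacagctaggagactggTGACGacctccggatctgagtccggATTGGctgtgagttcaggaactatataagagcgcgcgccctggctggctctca
H2-M3: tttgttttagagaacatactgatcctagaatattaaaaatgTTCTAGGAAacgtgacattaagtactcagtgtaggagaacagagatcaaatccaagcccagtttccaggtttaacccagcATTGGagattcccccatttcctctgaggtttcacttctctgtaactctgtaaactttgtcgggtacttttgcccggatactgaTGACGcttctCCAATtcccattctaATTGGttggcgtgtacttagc
The classical heavy chain promoters are close copies, and the longest run they share without a mismatch is 47 bases, starting 141 bases before the start of H2-K1 and 201 bases before that of H2-D1. It holds the kappa B element of the class I enhancer and is shown for that reason.
Shared run: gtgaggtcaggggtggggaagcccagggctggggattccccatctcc
Of the 8 members searched, the exact letters GAAA, any 2 bases, GAAA were found in B2m (139 bases before the start) and in H2-T23 (124 bases), and in 2.98% of all promoters. Variants of these letters were not searched. The lack of an exact match, as in H2-K1 and H2-D1, thus does not show that a promoter lacks an interferon-stimulated element. TTCNNNGAA was found 209 bases before the start of H2-M3 and in 7.02% of all promoters. These matches describe letters, and binding was not measured.

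The shallowest library had 426624 reads on genes and the deepest 3389448. A count of 0 allows up to 3 reads, or 0.885 to 7.03 reads per 1000000 reads of the library, which covers counting error only. Levels are given as reads per 1000000 after joint scaling of the libraries (RPM), a scale that differs somewhat from that of this floor. The kit counts the 3′ end of a transcript, so that reads do not grow with gene length. Libraries with replicate number 3 stood apart in every group, and in them the transcript Gm42418 took 2.65% to 14.3% of the reads, against at most 0.579% in numbers 1 and 2. Both F4/80hi libraries of number 3 were low in resident Mϕ markers for their label. The 10 resident markers summed to 826 and 1349 RPM there. The other F4/80hi libraries had 5657 to 8030 and the F4/80lo libraries 697 to 1515 RPM. Adgre1, the gene of F4/80, was at 431 and 386 RPM there, against 1085 to 1287 in the other F4/80hi and 195 to 360 in the F4/80lo libraries. Ccr2, a monocyte receptor, was at 1411 and 740 there and at 19.5 to 306 RPM in the other F4/80hi libraries. The 10 markers of monocyte-derived F4/80lo Mϕ, Ccr2 among them, did not follow it as a set. They summed to 2249 and 1371 RPM there, to 1106 to 2134 in the other F4/80hi and to 2405 to 5971 in the F4/80lo libraries. For the class I genes, results that rest on these libraries are given with and without number 3. Reads of T and NK cell markers summed to 1.39 to 97.5 RPM over the 12 libraries and those of B cell markers to 1.39 to 181.6.

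B2m, H2-K1 and H2-D1 dominated class I mRNA. Over the 12 libraries they supplied 40.7%, 30.9% and 19.2% of the summed level of the 10 members, which ran from 7263 to 14127 RPM. Tapbp (172 to 680 RPM), Tap1 (50.1 to 523) and Tap2 (13.3 to 363) were next, followed by Nlrc5 (18.3 to 166), H2-M3 (38.0 to 145) and Erap1 (2.21 to 59.1). H2-T23 was barely detected, with 3 reads or fewer in 9 of 12 libraries and at most 24. B2m and H2-D1 were the steadiest, their highest library being 1.91 and 2.08 times the lowest. Of the 8 genes with more than 3 reads in every library the most variable was Tap2 with 27.4 times, while Tap1 spanned 10.4 times and Nlrc5 9.10 times. H2-K1 and H2-D1 are close relatives, and 4.69% and 3.56% of the 60-base windows in the last 500 bases of their transcripts occur in other genes too. For H2-T23 this share was 30.2%, and how reads that map to several genes were counted is not given in the sources used here.

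**Figure D1:**
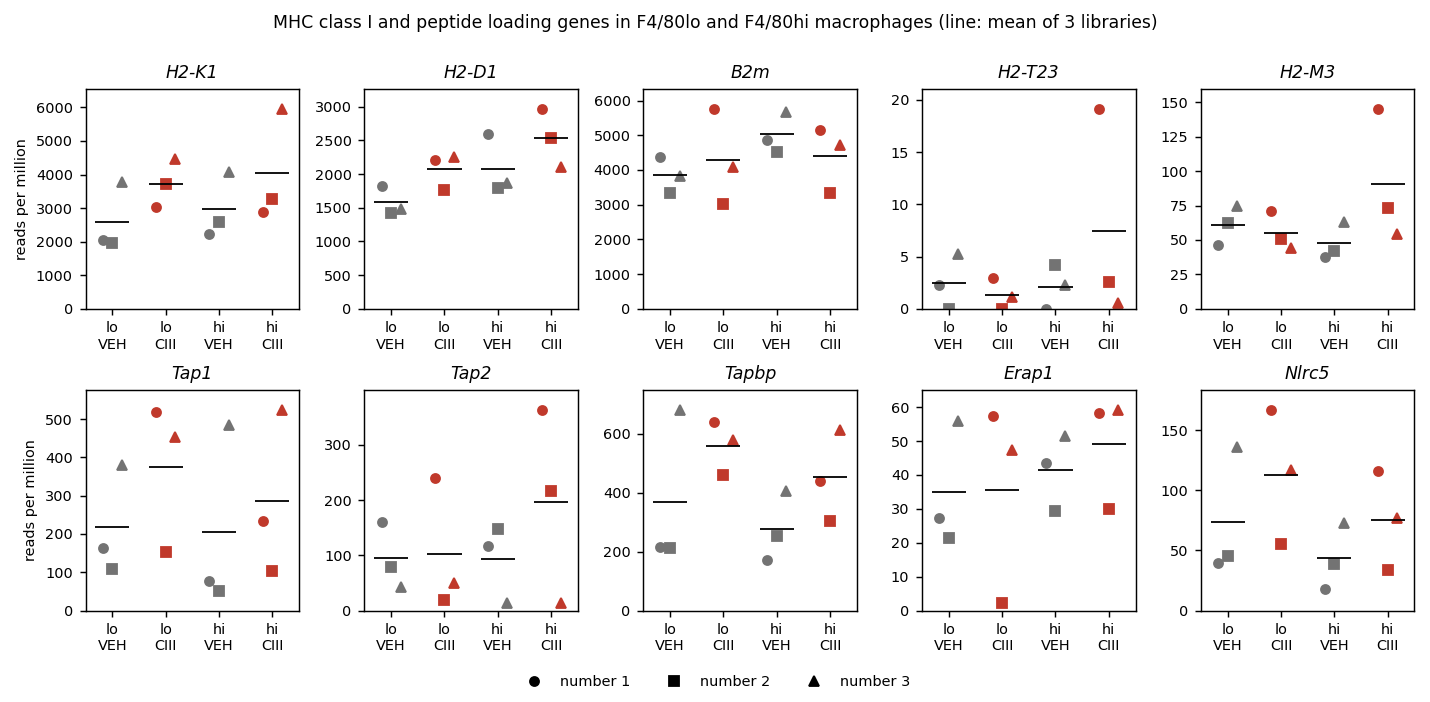
RPM of each of the 10 genes in the 12 libraries (y axis, linear from 0, scaled per gene), by subpopulation (lo, hi) and treatment (grey VEH, red CIII); symbols give the replicate number and lines the mean of 3 libraries. The triangles of number 3 are the highest of their group for H2-K1 in all 4 groups and for Tap1 in 3 of 4, and the lowest for Tap2 in 3 of 4.

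The first comparison asked whether blocking mPGES-1 changed class I genes in F4/80lo Mϕ. In limma's test 0 of the 9 members tested had an adjusted p under 0.05 (0% of all 10718 genes), and 0 had an unadjusted p under 0.05 (2.7% of all genes). edgeR and DESeq2 on the recovered reads also called 0 members. H2-T23 was not tested because its mean lay under 3 normalized counts. The fitted CIII value was above VEH in 6 of the 9 (H2-K1, H2-D1, B2m, Tap1, Tapbp, Nlrc5) and below it in Tap2, H2-M3 and Erap1, with a median log2 difference of 0.40, while the median of all genes was -0.05. In none of the 9 did the 3 CIII libraries lie entirely above or below the 3 VEH libraries, which 3.82% of all genes did upwards and 4.92% downwards. An exact permutation test of 3 against 3 libraries cannot go below p = 0.1. As no gene at all passed, a count of 0 members does not show that the members were unchanged. Neutrophil markers summed to 24.1 to 90.2 RPM with VEH and 21.8 to 47.4 RPM with CIII in F4/80lo Mϕ, with Ngp and Camp at 0 reads. T and NK cell markers summed to 11.4 to 28.9 and 20.9 to 59.6 RPM. B cell markers summed to 123.0, 25.3 and 24.4 RPM with VEH and to 181.6, 72.8 and 26.4 with CIII (numbers 1, 2 and 3). Of the 3 B cell markers tested, 1 had a fitted difference above 0 and 2 below. The part of these cells in the class I values was not tested. The gate for F4/80lo Mϕ left out Ly6G+ neutrophils. Of single markers, Trbc2 of T cells (1, 4 and 13 reads with VEH, 27, 5 and 8 with CIII) and Btla of the dendritic cell list (3, 2 and 5 reads, then 26, 7 and 8) did not overlap upwards once reads were normalized for depth, and 5 of 5 dendritic cell markers tested had a fitted difference above 0.

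H2-K1, the first classical heavy chain, was at 2084, 1982 and 3616 normalized counts with VEH and at 2962, 3838 and 4463 with CIII (F4/80lo, numbers 1, 2 and 3). The CIII library was the higher of the pair at each number, but VEH number 3 lay inside the CIII range. The log2 difference was 0.59 with a standard error (SE) of 0.46 (limma, adjusted p = 0.9996). H2-D1 was at 1862, 1448 and 1420 with VEH and at 2152, 1818 and 2266 normalized counts with CIII, and here only CIII number 2 fell within the VEH range. Its log2 difference was 0.40 (SE 0.39). B2m, the shared light chain, differed least, with 4477, 3394 and 3656 against 5632, 3121 and 4113 normalized counts and a log2 difference of 0.13 (SE 0.47). The CIII libraries of B2m held both the highest and the lowest value.

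Among the transport and loading genes of F4/80lo Mϕ, Tap1 had 168, 109 and 362 normalized counts with VEH and 505, 158 and 453 with CIII. It was thus higher with CIII at every number, by 1.59, 0.53 and 0.32 on the log2 scale, yet the groups overlapped. The fitted log2 difference was 0.81 (SE 0.53, limma adjusted p = 0.9996). Its partner Tap2 went from 164, 80.9 and 41.3 to 234, 20.6 and 49.7 normalized counts, which is up at numbers 1 and 3 and down at number 2. The Tap2 value of CIII number 2 rests on 9 reads. Tapbp, the chaperone that bridges Tap and the heavy chain, was at 222, 216 and 651 with VEH and at 625, 475 and 583 with CIII. At numbers 1 and 2 the CIII libraries were 1.49 and 1.14 higher on the log2 scale, whereas at number 3 the difference was -0.16. Its fitted difference was 0.82 (SE 0.44), the largest of the 9. Nlrc5 was at 40.7, 46.2 and 130 normalized counts with VEH and at 162, 57.1 and 117 with CIII, a log2 difference of 0.71 (SE 0.52) that came mainly from number 1. The trimming enzyme Erap1 showed no common direction (-0.66, SE 0.93), with only 1 read in CIII number 2. H2-M3 ranged from 47.7 to 71.6 normalized counts with VEH and from 44.2 to 69.5 with CIII.

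The same question was put to F4/80hi Mϕ, where all 10 members passed the minimum. Limma gave an adjusted p under 0.05 to 0 of 10 members (0% of all 10499 genes) and an unadjusted p under 0.05 to 0 (3.93% of all genes), and edgeR and DESeq2 also called 0. The fitted difference was above 0 in 9 of 10, all but B2m, with a median of 0.67 against 0.05 for all genes. No member's groups were fully separated, as were those of 4.73% of all genes upwards and 5.76% downwards. With each library left out in turn this median lay between 0.35 and 0.81. Markers of other cells also varied in F4/80hi Mϕ. B cell markers summed to 2.81, 1.39 and 48.2 RPM with VEH and to 65.5, 18.3 and 12.1 RPM with CIII, T and NK cell markers to 7.03, 1.39 and 97.5 against 9.59, 9.13 and 4.22 RPM, and neutrophil markers to 50.6, 51.5 and 147.9 against 45.5, 36.5 and 44.0 RPM. VEH number 3 was thus the highest library for the T, NK and neutrophil markers. Of single markers, Ebf1 of B cells (0, 0 and 3 reads with VEH, 8, 5 and 6 with CIII) did not overlap upwards, and S100a8 of neutrophils (30, 19 and 78 reads, then 17, 5 and 25) and Nkg7 of NK cells (4, 1 and 11 reads, then 0, 0 and 1) did not downwards, while Ly6g, Ngp and Camp were at 0 reads. Their part in the class I values was not tested.

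H2-K1 was at 2101, 2419 and 3820 normalized counts with VEH and at 2598, 3000 and 5411 with CIII in F4/80hi Mϕ, again higher at each number by 0.31, 0.31 and 0.50. Its log2 difference was 0.37 (SE 0.49, limma adjusted p = 0.992). H2-D1 was at 2449, 1677 and 1744 against 2686, 2330 and 1917 normalized counts (log2 difference 0.25, SE 0.41). B2m was the exception with 4610, 4237 and 5309 normalized counts with VEH and 4657, 3061 and 4274 with CIII, a difference of -0.26 (SE 0.47). The light chain thus did not share the sign of the heavy chains here, although neither difference passed the test. H2-T23 had 0, 3.92 and 2.10 normalized counts with VEH and 17.3, 2.40 and 0.55 with CIII, so that its difference of 0.89 (SE 1.16) came from the 24 reads of CIII number 1.

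Tap1 had 73.1, 47.0 and 453 normalized counts with VEH and 212, 94.9 and 474 with CIII in F4/80hi Mϕ. It was higher by 1.52 and 1.00 on the log2 scale at numbers 1 and 2 and almost level, at 0.07, at number 3, whose VEH library alone exceeded 2 of the CIII libraries. The fitted difference was 0.86 (SE 0.84). Tap2 was at 110, 138 and 13.6 with VEH and at 328, 199 and 12.03 normalized counts with CIII. The CIII library was 1.56 and 0.52 higher at numbers 1 and 2, and number 3 was low in both treatments, with 13 and 22 reads. Its fitted difference was 0.64 (SE 1.21) and became -0.39 without VEH number 3. Tapbp was at 162, 236 and 379 against 399, 279 and 558 normalized counts, higher with CIII at each number, with a difference of 0.70 (SE 0.42). Nlrc5 was at 17.3, 36.6 and 68.1 against 105, 31.2 and 70.0, so that its difference of 0.78 (SE 0.59) came from number 1, where it was 2.53. H2-M3 was at 35.9, 39.2 and 58.7 against 131, 67.3 and 49.2 normalized counts, with CIII higher at numbers 1 and 2 only (0.79, SE 0.44). Erap1 was at 41.2, 27.4 and 48.2 against 52.7, 27.6 and 53.6 (0.17, SE 0.43).

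Without number 3, whose F4/80hi libraries were low in resident Mϕ markers, the F4/80hi difference grew for several genes. With numbers 1 and 2 only it was 1.26 (SE 0.45) for Tap1, 1.04 (SE 0.36) for Tap2 and 1.30 (SE 0.43) for H2-M3, each with a limma adjusted p of 0.626. It was 1.16 (SE 0.60) for Nlrc5 and 1.83 (SE 1.28) for H2-T23. The values of Tapbp (0.77, SE 0.35), H2-K1 (0.31, SE 0.33), H2-D1 (0.30, SE 0.35), Erap1 (0.18, SE 0.48) and B2m (-0.23, SE 0.37) lay close to those with all libraries. The median of the 10 members was 0.90, and 0 genes of all tested had an adjusted p under 0.05.

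**Figure D2:**
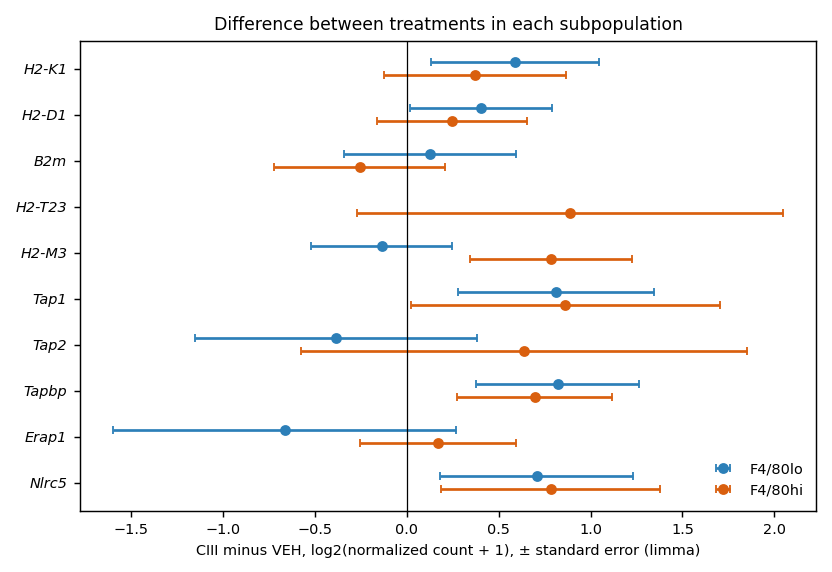
CIII minus VEH on the scale of log2(normalized count + 1) for each gene (x axis) in F4/80lo (blue) and F4/80hi (orange) Mϕ, with points at limma's estimate and bars of 1 standard error, 3 libraries per treatment. Tap1 (0.81 and 0.86), Tapbp (0.82 and 0.70) and Nlrc5 (0.71 and 0.78) lie to the right of 0 in both subpopulations, and no gene passed the test.

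The deviations of same-numbered libraries from their group means correlated by more than 0.1 at each number, so the comparison was repeated with number as a block. This correlation was highest at number 3, while VEH number 1 correlated more with CIII number 2 than with CIII number 1. Higher with CIII at all 3 numbers were H2-K1, H2-D1 and Tap1 in F4/80lo Mϕ (3 of the 9 members tested, 13.1% of all genes) and H2-K1, H2-D1, Tap1, Tapbp and Erap1 in F4/80hi Mϕ (5 of 10, 17.2% of all genes). H2-K1, H2-D1 and Tap1 were higher at all 3 numbers of both subpopulations (3 of the 9 members tested in both, 4.08% of all genes). Under the replicate block Tap1 and Tapbp (limma, adjusted p = 0.689 for both) had an unadjusted p under 0.05 in F4/80lo Mϕ, 2 of 9 members against 3.03% of all genes that were higher at this threshold. The same 2 genes did so in F4/80hi Mϕ, Tap1 with a limma adjusted p of 0.325 and Tapbp with one of 0.368, 2 of 10 members against 5.07% of all genes. Under the block 0 members had an adjusted p under 0.05 in either subpopulation. With numbers 1 and 2 only, the F4/80lo differences moved both ways, and the median of the members fell from 0.40 to 0.27. They were 1.06 (SE 0.43) for Tap1, 1.31 (SE 0.35) for Tapbp, 1.13 (SE 0.49) for Nlrc5 and 0.73 (SE 0.37) for H2-K1, with limma adjusted p-values of 0.729, 0.232, 0.781 and 0.864. H2-D1 was at 0.27 (SE 0.36), B2m at 0.10 (SE 0.40), H2-M3 at 0.14 (SE 0.47), Tap2 at -0.71 (SE 0.63) and Erap1 at -0.91 (SE 0.89).

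Whether the subpopulations differed in their response was tested across all 12 libraries. Limma gave an adjusted p under 0.05 to 0 of 9 members (0% of 10097 genes) and an unadjusted p under 0.05 to 0 (1.71% of all genes), and edgeR and DESeq2 called 0. The difference of responses, F4/80lo minus F4/80hi, ranged from -1.02 (SE 1.66) for Tap2 to 0.38 (SE 0.57) for B2m. For Tap1, Nlrc5 and Tapbp it was -0.05 (SE 1.12), -0.08 (SE 0.86) and 0.13 (SE 0.64). With numbers 1 and 2 only, the median over the members was -0.03, and with all libraries -0.05. With errors of this size, differences of more than 1 on the log2 scale could not be resolved for Tap1, Tap2, Nlrc5 and Erap1.

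The rest of the pathway was read from lists of related genes. In both subpopulations 0 genes of these lists had an adjusted p under 0.05. Of 24 regulators of class I transcription tested, 19 had a fitted CIII value above VEH, and in F4/80hi Mϕ it was 19 of 23, beside 45.9% and 53.5% of all genes. Groups did not overlap upwards in 5 of the 24 in F4/80lo (Irf9, Rfx5, Rfxap, Rela and Ifngr1) and downwards in 1 (Nfkb1), and upwards in 3 of the 23 in F4/80hi Mϕ (Ifngr1, Jak1 and Jak2), where all genes gave the 3.82%, 4.92% and 4.73% above. These genes were named after their values were seen. Irf1, an interferon-induced activator of class I promoters, was at 256, 118 and 760 with VEH and at 1136, 395 and 832 normalized counts with CIII in F4/80lo Mϕ. Like Tap1 it was higher at every number there, and VEH number 3 overlapped the CIII range (log2 difference 1.34, SE 0.62). Rfx5, a subunit of the RFX complex with which Nlrc5 works, was at 17.5, 10.3 and 11.3 normalized counts with VEH and 48.2, 25.1 and 24.3 with CIII in F4/80lo Mϕ, groups that did not overlap (1.22, SE 0.52, limma adjusted p = 0.9996). Ifngr1, a chain of the interferon gamma receptor, was non-overlapping in both subpopulations, with 521, 438 and 422 against 810, 1110 and 983 normalized counts in F4/80lo (1.06, SE 0.34) and a difference of 1.08 (SE 0.39) in F4/80hi Mϕ.

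Of 11 other class I heavy chains and relatives tested in F4/80lo Mϕ, 4 had a fitted difference above 0 and the median was -0.45, while in F4/80hi Mϕ it was 4 of 9 with a median of -0.07. Groups did not overlap downwards for H2-M2 and Mr1, which presents vitamin metabolites to T cells, in F4/80lo Mϕ (2 of 11, and 4.92% of all genes), and upwards for 1 of 11 (3.82% of all genes). H2-M2 rested on 6, 16 and 2 reads with VEH and 0 in each CIII library, and Mr1 on 14, 10 and 18 against 8, 1 and 3 reads, so that most CIII libraries lay at or under the floor of 3 reads. This gene, Fcgrt, the neonatal Fc receptor that also pairs with B2m, was at 81.5, 116 and 102 with VEH and at 220, 224 and 200 normalized counts with CIII. It did not overlap in F4/80hi Mϕ either (1 of 9, and 4.73% of all genes), and its differences were 1.11 (SE 0.32) and 1.09 (SE 0.39). Tapbpl, the tapasin relative that edits peptides, was the 1 of 9 other loading genes that did not overlap upwards in F4/80lo Mϕ (3.82% of all genes). Its difference was 0.89 (SE 0.38) there and 0.30 (SE 0.44) in F4/80hi Mϕ. The immunoproteasome genes had no common direction in F4/80lo Mϕ, where 4 of 6 fitted differences were above 0. In F4/80hi Mϕ 6 of 6 were below 0, with Psmb8, a catalytic subunit, at -0.36 (SE 0.53) and the assembly factor Pomp at -0.97 (SE 0.36). Pomp was the 1 of 6 whose groups did not overlap downwards (5.76% of all genes). The common sign of the 6 rested in part on number 3, as with numbers 1 and 2 only Psmb8 was at 0.16 (SE 0.43) and Psmb9 at 0.33 (SE 0.58). Psme1 was then at -0.04 (SE 0.58) and Pomp at -0.81 (SE 0.33). The median of the 6 stayed below 0, at -0.095 against -0.47 with all libraries. Psmb9 lies next to Tap1 on the opposite strand and differed by 0.73 (SE 0.56) in the former and by -0.06 (SE 0.55) in the latter subpopulation. Fitted differences were above 0 in 4 of 9 other loading and assembly genes, 1 of 7 peptidases and 2 of 3 class I receptors in F4/80lo, and in 6 of 9, 4 of 6 and 2 of 2 in F4/80hi Mϕ. Among these, Klra2, a receptor of the Ly49 family, was the 1 of 3 receptors that did not overlap upwards in F4/80lo Mϕ (1.17, SE 0.42, limma adjusted p = 0.9996). Tpp2 was the 1 of 6 peptidases that did not overlap upwards in F4/80hi Mϕ (0.29, SE 0.30). Of all genes, 3.82% and 4.73% did not overlap upwards. MHC class II genes had a median difference of 0.79 over 10 genes in F4/80lo and of 1.57 over 8 genes in F4/80hi Mϕ, beside 0.40 and 0.67 for the class I members. H2-Aa, H2-Ab1, H2-Eb1 and Cd74 did not overlap upwards in F4/80lo Mϕ (4 of 10, and 3.82% of all genes), and 0 of 8 did so in F4/80hi Mϕ. With numbers 1 and 2 only, the class II medians were 0.46 over 10 genes and 1.27 over 7 genes, beside 0.27 and 0.90 for class I.

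The last comparison set the level in F4/80lo against that in F4/80hi Mϕ. Because the subpopulations were normalized separately, recovered reads were scaled together to RPM. No difference in class I mRNA passed the test. Limma gave an adjusted p under 0.05 to 0 of 10 members (0.0186% of 10726 genes) and an unadjusted p under 0.05 to 0 (9.29% of all genes), edgeR and DESeq2 called 0 members, and no member's 6 F4/80lo libraries lay wholly above or below the 6 F4/80hi libraries (0.559% of all genes lay above and 0.28% below). In bulk samples fewer expressing cells and less RNA per cell cannot be told apart.

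H2-K1 ran from 1956 to 4448 RPM in F4/80lo Mϕ (median 3371) and from 2223 to 5963 in F4/80hi Mϕ (median 3066), a log2 difference of -0.13 (SE 0.32, limma adjusted p = 0.942). H2-D1 was somewhat lower in F4/80lo, with 1429 to 2259 (median 1790) against 1788 to 2972 RPM (median 2321) and a difference of -0.34 (SE 0.25). B2m had medians of 3961 and 4793 RPM and a difference of -0.22 (SE 0.30). These 3 abundant genes are the best measured, and their ranges overlapped widely. The median of Tap1 was 271 RPM in F4/80lo libraries and 169 RPM in F4/80hi libraries (0.55, SE 0.57). Nlrc5 had medians of 86.0 and 55.9 (0.67, SE 0.44), and Tapbp of 520 and 354 (0.32, SE 0.33, and 0.036 without F4/80lo VEH number 3). Erap1 lay the other way with -0.76 (SE 0.60), a value that became -0.09 without F4/80lo CIII number 2 and its 1 read. Tap2 and H2-M3 had differences of -0.18 (SE 0.83) and -0.12 (SE 0.29), and H2-T23, near the floor in both, -0.59 (SE 0.79).

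Of the 24 regulators, 17 had a fitted value higher in F4/80lo Mϕ, as did 49.8% of all genes. Nfkb1, an NF-kappa B subunit, was the 1 regulator of 24 whose libraries did not overlap upwards, which 0.559% of all genes did (0.87, SE 0.21, limma adjusted p = 0.144, and 0.0356 with numbers 1 and 2 only, 0.0328 without the F4/80hi libraries of number 3 and 0.00908 in the fit by pairs). In the fit by pairs 2 of 24 regulators had an adjusted p under 0.05 (4.32% of all genes). Of 3 class I receptors, Klrd1 did not overlap upwards, with 1 to 24 reads in F4/80lo and 0 or 1 in F4/80hi libraries. Its limma adjusted p was 0.192, and 0.0233 with numbers 1 and 2 only and 0.018 by pairs. Without the F4/80hi libraries of number 3, 0 class I receptors had an adjusted p under 0.05. The 7 dendritic cell markers summed to 10.8 to 254.6 RPM in F4/80lo and 1.30 to 20.9 RPM in F4/80hi libraries, and their part in the class I levels was not tested. The gating scheme set CD11c+ MHCII+ dendritic cells aside before the Mϕ gates.

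MHC class II genes, which the F4/80lo sort selected for, had higher fitted levels in F4/80lo Mϕ for all 10 tested, with a median log2 difference of 2.32, beside -0.15 for the 10 class I members. With all 12 libraries 0 of the 10 class II genes had an adjusted p under 0.05 (smallest limma adjusted p = 0.104), as was the case for class I, and 10 of 10 had an unadjusted p under 0.05 (9.29% of all genes). H2-Eb1, a class II beta chain, ran from 676 to 4413 RPM (median 2096) in F4/80lo and from 96.1 to 3762 (median 273) in F4/80hi Mϕ. Its high F4/80hi value of 3762 came from CIII number 3, an F4/80hi library low in resident Mϕ markers. The low F4/80lo value of 676 came from VEH number 3.

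**Figure D3:**
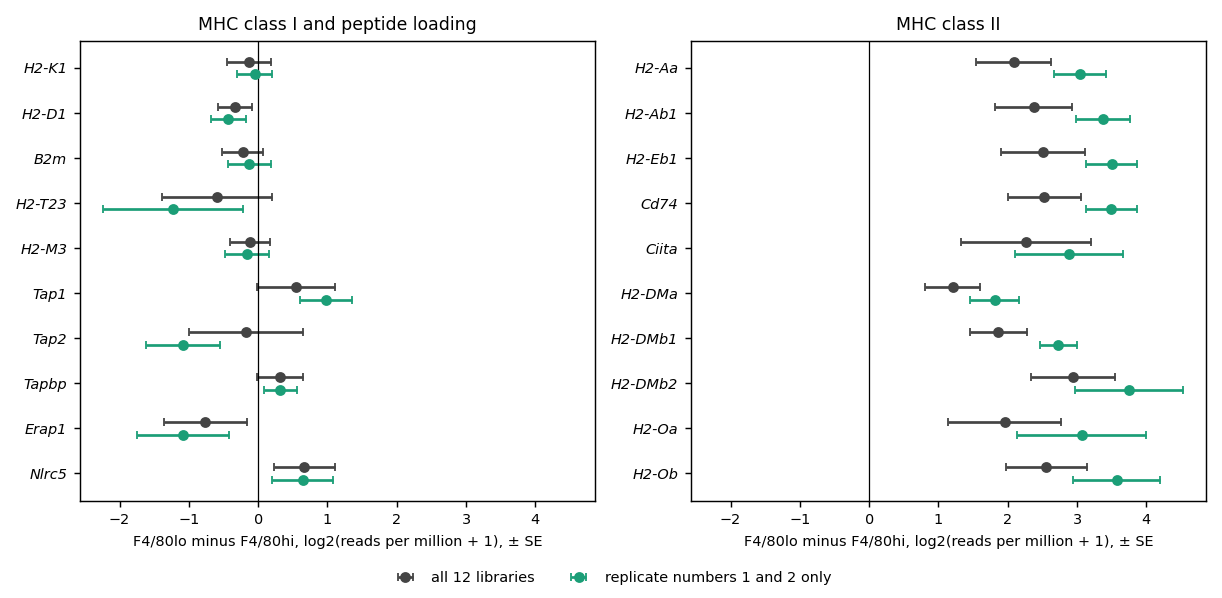
F4/80lo minus F4/80hi on the scale of log2(RPM + 1) for the class I members (left) and the MHC class II genes (right), as limma estimates with bars of 1 standard error, from all 12 libraries (dark) and from replicate numbers 1 and 2 only (green, 8 libraries). Class I genes scatter around 0 while the 10 class II genes lie between 1.20 and 2.94 with all libraries.

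Leaving out number 3 raised the contrast between subpopulations in general but not the calls among class I genes. With numbers 1 and 2 only, 3.09% of all genes had an adjusted p under 0.05, and these included 8 of 10 class II genes and 0 of 10 class I members. Without the 2 F4/80hi libraries of number 3 it was 2.79% of all genes, 8 class II genes and 0 members. With F4/80lo and F4/80hi libraries of the same treatment and number as pairs, it was 4.32% of all genes, 9 class II genes and 0 members. No correlation was computed to check this pairing. Tap1 was higher in F4/80lo by 0.98 (SE 0.37, adjusted p = 0.185) with numbers 1 and 2 only and by 1.36 (SE 0.43, adjusted p = 0.105) without the F4/80hi libraries of number 3. Tap2 was then lower, by -1.09 (SE 0.54) and -1.38 (SE 0.55). Nlrc5 came nearest to the threshold in the paired fit, at 0.67 (SE 0.20, adjusted p = 0.0708).

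The levels were also read by replicate number. H2-K1 lay between 3781 and 5963 RPM in the 4 libraries of number 3 and between 1956 and 3708 in the 8 others, so that it was the 1 member of 10 with no overlap upwards (8.2% of all genes), and 0 of 10 had none downwards (3.81%). These counts are near the shares of all genes. Tap1 was at 379 to 523 in number 3, a range that of the 8 others only F4/80lo CIII number 1 reached, at 517 RPM. Tap2 behaved in the opposite way with 13.3 to 49.6 in number 3 and 19.9 to 363 in the others. As a ratio within each library, there were 8.77 to 39.4 Tap1 reads per Tap2 read in number 3 (median 21.2) and 0.34 to 7.67 (median 0.84) in numbers 1 and 2. H2-K1 reads per H2-D1 read showed a smaller shift, with 1.97 to 2.82 against 0.86 to 2.11. Of the 10 other heavy chains tested, the nonclassical H2-Q7 (169 to 190 against 13.0 to 55.2 RPM) and H2-T22 (72.7 to 112 against 6.62 to 56.3) were also higher in number 3 without overlap (8.2% of all genes). H2-T22 shares 51.2% of its end windows with H2-T10. The others of the list overlapped, and among them H2-Q4 and Hfe had lower means in number 3 (-0.70 each on the log2 scale). Gm42418 was high in the same 4 libraries, and its part in these values was not tested. The labels do not say what a replicate number stands for.

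**Figure D4:**
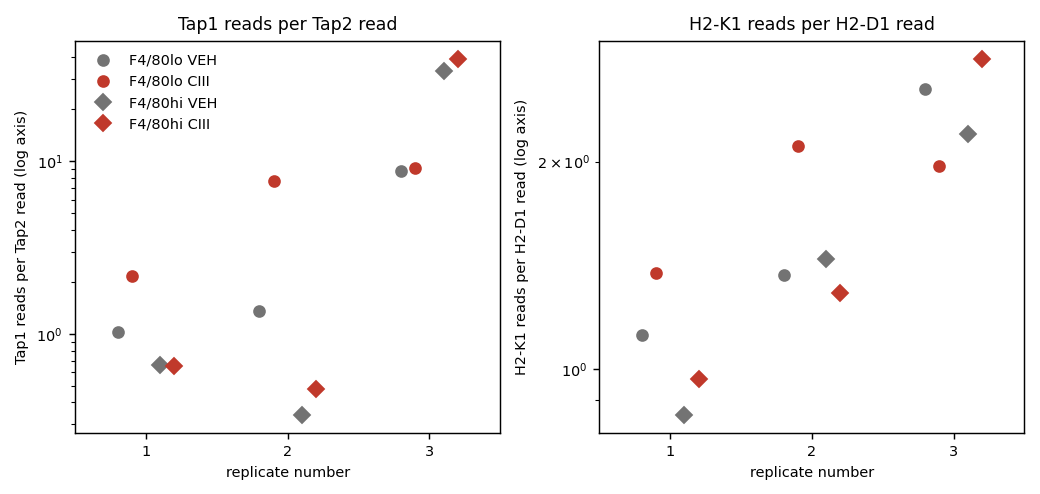
Tap1 reads per Tap2 read (left) and H2-K1 reads per H2-D1 read (right) in each of the 12 libraries by replicate number, on log axes; circles are F4/80lo and diamonds F4/80hi Mϕ, grey VEH and red CIII. The 4 libraries of number 3 hold the highest Tap1 to Tap2 ratios, from 8.77 to 39.4.

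The members did not follow a single pattern. Over the 12 libraries the correlation of each of 9 members (H2-T23 left out) with their mean log2 level ran from 0.26 for Tap2 and 0.37 for H2-K1 to 0.72 for Erap1 and 0.81 for Nlrc5. The mean includes the gene itself, and libraries share depth and number. Among 7751 other genes with at least 10 normalized counts, the 5 most like this mean were Naa25 (Pearson r = 0.93), Gbp2 (0.92), Tlr4 (0.92), Nampt (0.90) and Cd47 (0.89). After removal of the 4 group means they were Tlr4, Irgm2, Gbp2, Naa25 and Chchd3 (0.95 each). Gbp2 and Irgm2 are interferon-inducible GTPases. These correlations describe 12 libraries in which number 3 stands apart.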

How the data were processed

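Normalized counts were used as deposited by the authors. They made 3′ libraries with unique molecular identifiers, trimmed reads with Bbduk, mapped them to GRCm38 with STAR, collapsed duplicates, counted genes with HTSeq-count and divided each library by a DESeq2 size factor, set separately in each subpopulation. This deposited signal is a read count over a factor, and in every library 100% of the values were whole multiples of 1 step, from which whole reads were recovered. Tool versions and the annotation release are not given in the sources used here. Symbols came from GENCODE for 47224 of 47643 genes.

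Treatments were compared within a subpopulation with limma 3.58.1 (R 4.3.3) on log2(normalized count + 1), in genes with a mean of at least 3, two-sided, with Benjamini-Hochberg adjustment over all genes tested and a threshold of 0.05. Such fold changes understate those of weakly expressed genes. Subpopulations were compared on recovered reads scaled together with TMM, as log2(RPM + 1), RPM being reads per 1000000. Alternatives included edgeR 4.0.16 and DESeq2 1.42.0 on recovered reads, and 1 alternative, leaving out both F4/80hi libraries of number 3, was chosen after seeing the data. The 10 members, the 16 gene lists (164 symbols, 3 not matched) and the tests were chosen with earlier results of these data known. From each other list, all genes were counted, and those named had the smallest p, were partners of the members or, added after their values were seen and beyond the planned limit of 4 a list, did not overlap between groups. The values of 1 partner gene are not reported here. For likeness, the 5 genes outside the lists that correlated best with the mean of the members were named.

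Deviations from group means of same-numbered libraries correlated at 0.121, 0.238 and 0.504 (F4/80lo) and at 0.216, 0.412 and 0.639 (F4/80hi) for numbers 1 to 3, so the numbers were taken as pairs, from these deviations alone. VEH number 1 correlated more with CIII number 2 (0.171 and 0.285) than with CIII number 1. These correlations compare treatments within a subpopulation. The pairs of F4/80lo with F4/80hi libraries were not checked in this way. The fits were tested on simulated data, in which strong changes passed the adjusted threshold in a minority of genes in F4/80lo Mϕ and in none in F4/80hi Mϕ or for the difference of responses, so that 0 calls there do not show that a gene was unchanged. Exact permutation tests used scipy 1.17.1 and figures matplotlib 3.10.9.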

Additional observations from a re-analysis of the deposited data

How the results depend on the processing

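In the 4 comparisons, 0 members had an adjusted p under 0.05 in every one of the 18 alternatives for each treatment comparison, the 24 for the difference of responses and the 28 across subpopulations, the replicate block (0 members) and edgeR and DESeq2 included. The smallest adjusted p of a member was 0.192, 0.325, 0.904 and 0.0708 in the order of the report. The paired fits changed no call among the members, while the fit by pairs across subpopulations raised the genes called among all tested from 2 to 463. The median of the members stayed between 0.27 and 0.56 in F4/80lo and between 0.35 and 0.94 in F4/80hi Mϕ with CIII, and crossed 0 in the other comparisons (-0.49 to 0.35 and -0.28 to 0.30). Genes called among all tested ranged up to 12 in F4/80lo Mϕ and 463 across subpopulations. Tap1, Tapbp, Nlrc5, H2-K1 and H2-D1 kept the sign of the CIII difference in both subpopulations under every alternative, but not its size. With 1 library left out, they ranged in F4/80lo Mϕ from 0.42 to 1.34 (Tap1), 0.55 to 1.34 (Tapbp), 0.38 to 1.23 (Nlrc5), 0.43 to 0.86 (H2-K1) and 0.33 to 0.53 (H2-D1), and in F4/80hi Mϕ from 0.22 to 1.84, 0.40 to 1.01, 0.29 to 1.26, 0.055 to 0.63 and 0.13 to 0.42. There H2-M3 ranged from 0.39 to 1.09, B2m from -0.38 to -0.074 and H2-T23 from 0.23 to 1.67. Across subpopulations Tap1 ranged from 0.22 (without F4/80hi VEH number 2) to 1.06 (without F4/80hi VEH number 3), and Nlrc5 from 0.39 (without F4/80lo VEH number 3) to 0.92 (without F4/80hi VEH number 3).

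Signs changed as follows, and the causes were not tested. In F4/80lo Mϕ with CIII, B2m was -0.15 after quantile normalization. With array quality weights Erap1 was 0.57, Tap2 0.30 and H2-M3 0.24, with edgeR Erap1 0.053 and Tap2 0.13, and with DESeq2 0.056 and 0.11. H2-M3 was 0.14 with numbers 1 and 2 only. For the difference of responses, quantile normalization gave B2m -0.018, H2-K1 -0.12 and Tapbp -0.032, array weights Erap1 0.32, Nlrc5 0.19 and Tap1 0.26, edgeR Tap1 0.32 and Tapbp -0.076, DESeq2 0.37 and -0.018, and numbers 1 and 2 only H2-D1 -0.035. Across subpopulations, H2-K1 was 0.015 after quantile normalization and 0.18 without both F4/80hi libraries of number 3, and within VEH only H2-M3 and Tap2 were 0.38 each. With 1 library left out, F4/80lo values with CIII ranged from -0.091 to 0.33 (B2m), -1.33 to 0.40 (Tap2), -0.31 to 0.013 (H2-M3) and -1.39 to 0.67 (Erap1), and F4/80hi values from -0.39 to 2.07 (Tap2) and -0.058 to 0.48 (Erap1). The difference of responses ranged from -0.039 to 0.53 (H2-K1), -0.016 to 0.28 (H2-D1), -1.03 to 0.59 (Tap1), -2.46 to 0.0065 (Tap2), -0.19 to 0.65 (Tapbp), -0.55 to 0.44 (Nlrc5) and -1.56 to 0.50 (Erap1). Across subpopulations it was -0.29 to 0.056 (H2-K1), -0.87 to 0.26 (Tap2) and -0.25 to 0.068 (H2-M3). By the fewest reads in a library, depth limits H2-T23 (0 reads), Erap1 (1) and Tap2 (9) most.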
